A study of Mus musculus with 6 samples.

Results

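The enzymes described here join xenobiotics, hormones and breakdown products to a water-soluble group. They are the UDP-glycosyltransferases (Ugt), the cytosolic sulfotransferases (Sult) and the glutathione S-transferases (Gst). Members were taken by symbol, as each gene whose name starts with Ugt, Sult or Gst: 62 of the 24346 genes in the tables, 21 of them Ugt, 19 Sult and 22 Gst. Kidney messenger RNA was sequenced from 3 samples of D-serine-treated mice and 3 samples of vehicle-treated mice. Mice of both groups lost 1 kidney (unilateral nephrectomy) and died 2 days later, after 1 week on a diet free of serine. Drinking water held 0.1% D-serine in the treated group and 0% in the vehicle group. D-serine is the mirror image of the amino acid L-serine, and the kidney takes it up and oxidises it. The series' title asks about glycolysis, the growth regulator mTOR and kidney remodeling under D-serine. The sources used here do not give strain, sex, age or whether each sample is 1 mouse, and the spread that the p-values rest on may therefore be technical. Sham-operated mice were not analysed here.

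Conjugation is the second phase of detoxification. Ugt enzymes sit in the endoplasmic reticulum and transfer a sugar, usually glucuronic acid from UDP-glucuronate. Sult enzymes transfer sulfate from the donor PAPS in the cytosol, and Gst enzymes couple the tripeptide glutathione to electrophiles. In the kidney these enzymes are abundant in the proximal tubule, whose cells also secrete the conjugates into urine. Several Gst genes are targets of NRF2, a transcription factor of the antioxidant response, and several Ugt genes respond to xenobiotic sensors.

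Values are FPKM as the authors deposited them: fragments counted on a transcript, divided by its length and by the library's mapped fragments, so levels of different genes can be set side by side. The tables hold no read totals. A rough total was taken as the most frequent one, within a preset range, at which the value of a single-transcript gene would stand for 1 fragment. These totals were 7230000 to 7680000 fragments in the D-serine libraries and 7830000 to 8660000 in the vehicle libraries. At that depth 1 FPKM of a 2 kb transcript stands for 14.5 to 17.3 fragments. All 6 libraries held kidney markers at high level, and the summed FPKM of the adipose and adrenal marker lists stayed at or under 1.36. Marker lists of nephron segments differed between the groups. The 9 tested markers of the last proximal tubule segment, S3, were all lower with D-serine (median log2 difference -0.73), and the list's summed level was 4297 to 5304 FPKM in D-serine libraries, against 6593 to 7636 FPKM in vehicle libraries. Acy3 and Slc27a2 made up most of that sum, with means of 2800 and 1549 FPKM with D-serine and 3851 and 2544 FPKM with vehicle. The S3 marker Slc5a1 hardly differed, at 28.1 ± 6.8 FPKM with D-serine and 28.0 ± 2.7 FPKM with vehicle (SD). Of 14 tested markers of segments S1 and S2, 3 were higher and 11 lower (median -0.18). Markers of collecting duct principal cells were higher in 8 of 9 cases (summed level 682 to 1021 FPKM with D-serine and 463 to 619 FPKM with vehicle). All 11 tested markers of intercalated cells and all 7 of the distal convoluted and connecting tubule were also higher. All 10 mitosis genes were higher and apart (median log2 difference 2.18, summed level 89.6 to 308 FPKM with D-serine and 16.7 to 24.5 FPKM with vehicle), with D-serine replicate 1 the highest. The part of these shifts in the members' values was not tested. In whole-kidney RNA, fewer cells of a type and less RNA per cell cannot be told apart.

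Of the 62 members, 33 averaged 1 FPKM or more across the 6 libraries (9 Ugt, 5 Sult and 19 Gst), and they were tested with limma on log2(FPKM + 1) within a fit over 11737 genes. The Ugt genes stood mostly lower with D-serine and the Gst genes were mixed, with more of them higher than lower. Of the tested Ugt genes 2 were higher and 7 lower, of the Sult genes 3 and 2, and of the Gst genes 13 and 6. The median log2 difference was -0.42 for Ugt, 0.23 for Sult and 0.097 for Gst, beside -0.0078 over all tested genes. With a Benjamini-Hochberg adjusted p of 0.05 as the threshold, 0 members passed in limma, where 0.0767% of all tested genes passed (0.00852% higher and 0.0682% lower). At an unadjusted p under 0.05 there were 16 members, 9 higher and 7 lower, and 27.7% of all tested genes met that limit (13.1% higher and 14.6% lower). The 3 D-serine libraries lay wholly above or wholly below the 3 vehicle libraries for 15 members (9 higher, 6 lower), where 35.8% of all tested genes were apart in this way (16.5% higher and 19.4% lower).

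**Figure D1:**
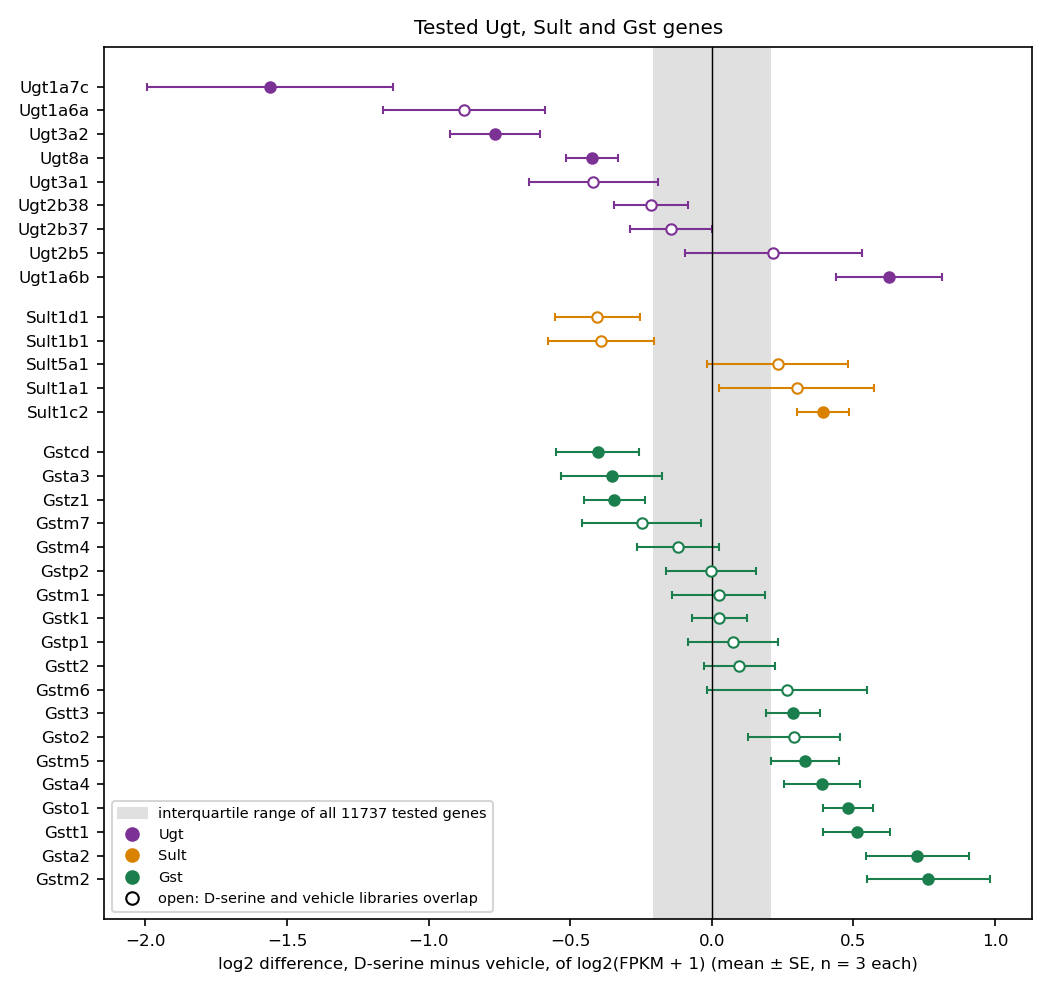
Log2 difference (D-serine minus vehicle) of log2(FPKM + 1) for the 33 tested members, with its SE (n = 3 each), by family; the grey band is the interquartile range of all 11737 tested genes and open points mark members whose libraries overlap between groups. Ugt1a7c lies farthest to the left at -1.56, and Gstm2 farthest to the right at 0.76.

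The threshold was missed narrowly by the members nearest to it, Gsto1 (adjusted p = 0.060) and Ugt3a2 (adjusted p = 0.067 in limma). Both passed when the 96 tested genes of small RNAs, which mostly lack a poly(A) tail, were left out of the fit (adjusted p = 0.046 and 0.048). In that fit 2 of 33 members passed, 1 higher and 1 lower, and 2.85% of all tested genes (1.27% higher and 1.58% lower). Both also passed with weighted libraries. Across the alternative settings and the fits that left out 1 library, the adjusted p ran from 0.046 to 0.21 for Gsto1 and from 0.033 to 0.22 for Ugt3a2.

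The summed level of a family shows what the abundant members do. All Ugt genes together came to 1828, 1794 and 2171 FPKM in the D-serine libraries and to 2485, 2706 and 2422 FPKM in the vehicle libraries. The Ugt sums did not overlap and were lower with D-serine. All Gst genes came to 2507, 2670 and 2412 FPKM with D-serine and to 2174, 2292 and 2355 FPKM with vehicle. The Gst sums were higher with D-serine and also did not overlap, although D-serine replicate 3 and vehicle replicate 3 lay close together. All Sult genes came to 260, 270 and 339 FPKM with D-serine and to 317, 346 and 364 FPKM with vehicle, where D-serine replicate 3 lay inside the vehicle range. The 62 members made up 0.593% ± 0.030 of the FPKM sum of a D-serine library and 0.647% ± 0.0096 of that of a vehicle library (SD, n = 3 each).

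**Figure D2:**
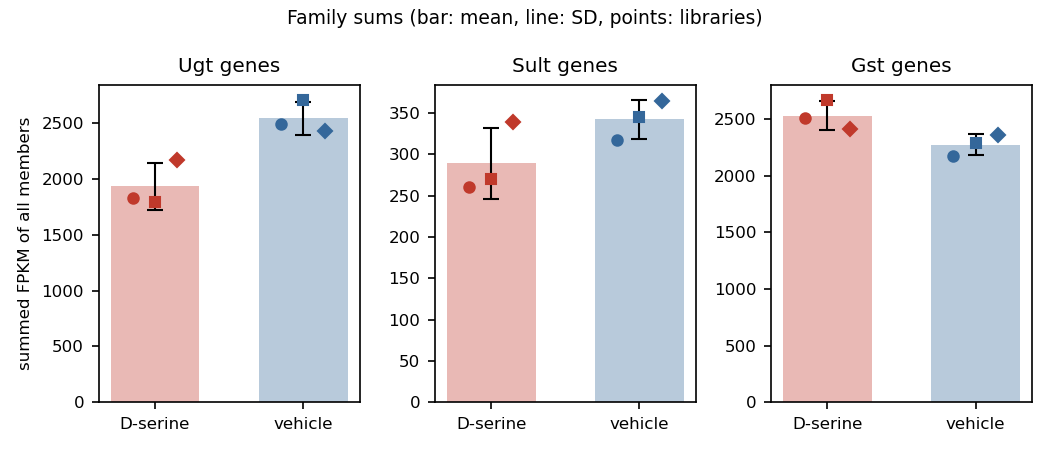
Summed FPKM of all members of each family per library (points), with the group mean (bar) and SD (line), n = 3 each. The Ugt sums lie between 1794 and 2171 FPKM with D-serine, below all vehicle sums, and the Gst sums between 2412 and 2670 FPKM, above all vehicle sums.

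The Ugt3a genes lie side by side on chromosome 15 and encode enzymes whose human counterparts use sugars other than glucuronic acid. Ugt3a2 (chromosome 15, 9335550 to 9370955, mm10) was among the most abundant members, with 451, 430 and 646 FPKM in D-serine libraries and 872, 851 and 832 FPKM in vehicle libraries. Every D-serine library was below every vehicle library, and D-serine replicate 3 was nearest to the vehicle range. The means were 509 ± 119 and 852 ± 20.4 FPKM (SD, n = 3 each), a log2 difference of -0.77 ± 0.16 (SE, adjusted p = 0.067 in limma). Its share of all Ugt FPKM was 26.4% with D-serine and 33.6% with vehicle. Ugt3a1 (9276888 to 9315032) had 78.6, 95.3 and 150 FPKM with D-serine and 157, 136 and 127 FPKM with vehicle. D-serine replicate 3 lay within the vehicle range there, and the log2 difference was -0.42 ± 0.23 (adjusted p = 0.26 in limma). Without D-serine replicate 1 the difference was -0.22 for Ugt3a1 (adjusted p = 0.53). Without D-serine replicate 3 it was -0.68 for Ugt3a1 (adjusted p = 0.049) and -0.95 for Ugt3a2 (adjusted p = 0.033). D-serine replicate 3 was the library of its group with the highest S3 marker sum as well, at 5304 FPKM, and the part of that segment in these values was not tested.

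Ugt8a encodes the enzyme that adds galactose to ceramide, the first step towards the sulfatides of kidney membranes. It had 26.4, 23.7 and 27.5 FPKM with D-serine and 36.1, 34.2 and 34.7 FPKM with vehicle. The groups were well separated and the spread within each was small, with a log2 difference of -0.42 ± 0.093 (adjusted p = 0.071 in limma). The gene lies on chromosome 3 (125865271 to 125938619), and none of its 50-base words occurs in another annotated gene.

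The Ugt2b genes on chromosome 5 encode glucuronosyltransferases of steroids, bile acids and drugs. Ugt2b38 held the largest share of Ugt FPKM with D-serine, 37.4%, and 33.2% with vehicle. Its libraries stood at 699, 681 and 787 FPKM with D-serine and at 745, 992 and 794 FPKM with vehicle. These groups overlapped, and the log2 difference of -0.22 ± 0.13 was not called (adjusted p = 0.31 in limma) and was -0.093 without vehicle replicate 2. Ugt2b37 averaged 233 ± 34.3 FPKM with D-serine and 257 ± 33.9 FPKM with vehicle (adjusted p = 0.54), and Ugt2b5 averaged 8.59 ± 4.22 and 6.94 ± 2.11 FPKM (adjusted p = 0.67, SD, n = 3 each). The 3 genes are paralogs, and 37.4% of the 50-base words of Ugt2b38 and 41.7% of those of Ugt2b5 occur in other genes, so reads could be split between them.

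The Ugt1a genes on chromosome 1 are transcripts of 1 locus. Each has a first exon of its own, which encodes the part that binds the substrate, and exons 2 to 4 are common to all 8 genes and, with the last exon, encode the part that binds the sugar donor. The last exon starts at the same base in all 8 but its annotated end differs: it has 871 bases in 6 genes, 878 in Ugt1a10 and 1876 in Ugt1a7c. The longer 3′ sequence is thus annotated for Ugt1a7c, and whether transcripts of the other genes also hold it was not tested. The sequences across that junction are shown because they set what a read can tell apart. In each, the capitals are the last 40 bases of the gene's own first coding exon and the lower-case letters are the first 20 bases of the shared exon (plus strand, GENCODE release M21, mm10). The first exon ends at chr1:88107760-88107799 for Ugt1a6b, at chr1:88095939-88095978 for Ugt1a7c and at chr1:88139292-88139331 for Ugt1a6a.
Ugt1a6b: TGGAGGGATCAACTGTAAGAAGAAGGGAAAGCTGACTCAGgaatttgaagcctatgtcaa
Ugt1a7c: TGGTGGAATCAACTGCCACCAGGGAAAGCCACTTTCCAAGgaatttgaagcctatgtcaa
Ugt1a6a: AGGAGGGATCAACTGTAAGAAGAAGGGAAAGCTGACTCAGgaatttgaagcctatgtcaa
Of the 40 capitals, Ugt1a7c matches Ugt1a6b at 21 and Ugt1a6a matches it at 39.

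Ugt1a7c had 121, 37.3 and 129 FPKM in D-serine libraries and 274, 246 and 230 FPKM in vehicle libraries. All D-serine libraries were lower, D-serine replicate 2 by far the lowest, and the log2 difference of -1.56 ± 0.43 (adjusted p = 0.092 in limma) was the most negative of the tested members. It was -0.99 without D-serine replicate 2. Ugt1a6b, whose enzyme acts on small phenols, stood the other way, with 225, 237 and 211 FPKM with D-serine and 106, 163 and 176 FPKM with vehicle (log2 difference 0.62 ± 0.19, adjusted p = 0.10). Without vehicle replicate 1 its difference was 0.40. Ugt1a6a was low, with 1.79, 0.395 and 0.601 FPKM with D-serine and 3.15, 1.77 and 2.34 FPKM with vehicle (adjusted p = 0.11), and its groups overlapped.

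How reads of the shared exons were divided among these genes depends on the annotation, which the sources used here do not give. In GENCODE 79.8% of the 50-base words of Ugt1a6b, 54.2% of those of Ugt1a7c and 96.0% of those of Ugt1a6a occur in another gene, and 1 annotated transcript named Ugt1a7c starts with the coding exon of Ugt1a6a. The FPKM sum of the 8 Ugt1a genes was 349, 277 and 343 FPKM with D-serine and 385, 411 and 409 FPKM with vehicle, lower in every D-serine library. Within the sum, Ugt1a6b held 61.7 to 85.8% with D-serine and 27.7 to 43.1% with vehicle, and Ugt1a7c held 13.5 to 37.8% and 56.1 to 71.2%.

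**Figure D3:**
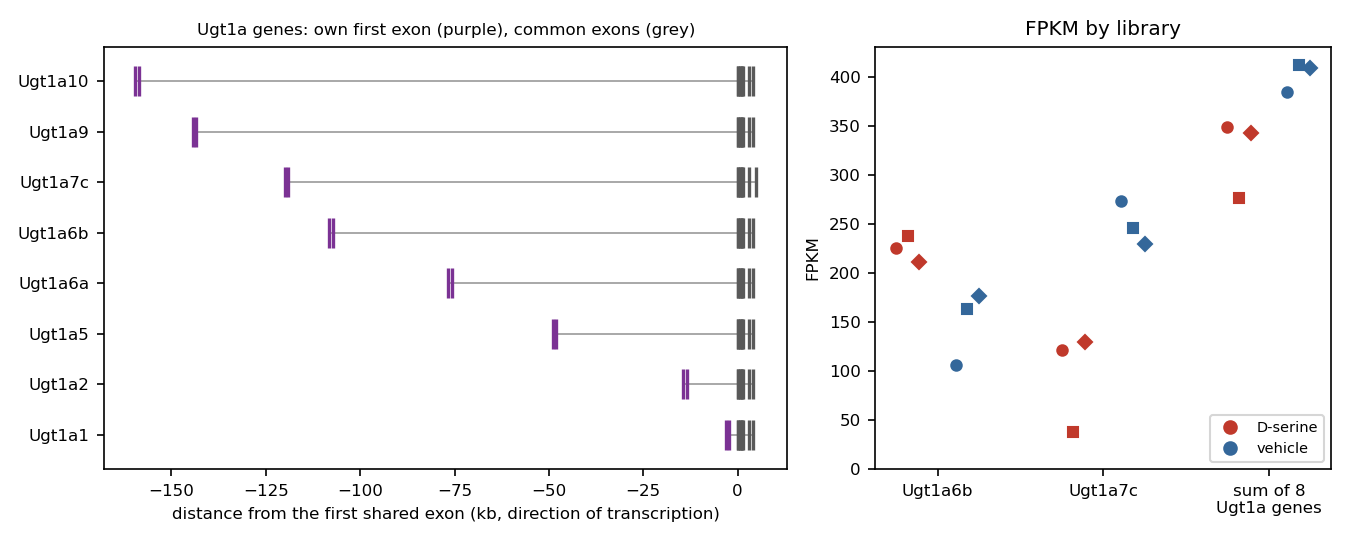
Left, exons of 8 Ugt1a genes by distance in kb from the first shared exon, with each gene's own first exon in purple and the common exons in grey. Right, FPKM of Ugt1a6b, Ugt1a7c and the sum of the 8 genes per library (circle, square and diamond are replicates 1, 2 and 3), D-serine in red and vehicle in blue; the sum runs from 277 to 349 FPKM with D-serine and from 385 to 411 FPKM with vehicle.

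Among sulfotransferases, Sult1d1, which sulfates catecholamines in mice, carried most of the family's level, 75.4% of Sult FPKM with D-serine and 83.6% with vehicle. It had 190, 196 and 269 FPKM in D-serine libraries and 264, 286 and 309 FPKM in vehicle libraries. D-serine replicate 3 overlapped vehicle replicate 1, and the log2 difference was -0.40 ± 0.15 (adjusted p = 0.14 in limma, and 0.046 without D-serine replicate 3). Sult1c2, a sulfotransferase of small phenols on chromosome 17 (53829637 to 53846339), stood the other way, with 52.0, 45.5 and 50.5 FPKM with D-serine and 39.2, 36.8 and 35.9 FPKM with vehicle. Its groups did not overlap, at a log2 difference of 0.39 ± 0.094 (adjusted p = 0.077). Sult1a1, the main phenol sulfotransferase, averaged 17.9 ± 5.68 FPKM with D-serine and 14.4 ± 4.59 FPKM with vehicle (SD, n = 3 each), with overlap. Sult1b1, which acts on thyroid hormones, averaged 1.38 ± 0.47 FPKM with D-serine and 2.09 ± 0.34 FPKM with vehicle, and Sult5a1 had 0.997 to 2.53 FPKM with D-serine and 0.863 to 1.63 FPKM with vehicle. Both of these overlapped between groups.

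**Figure D4:**
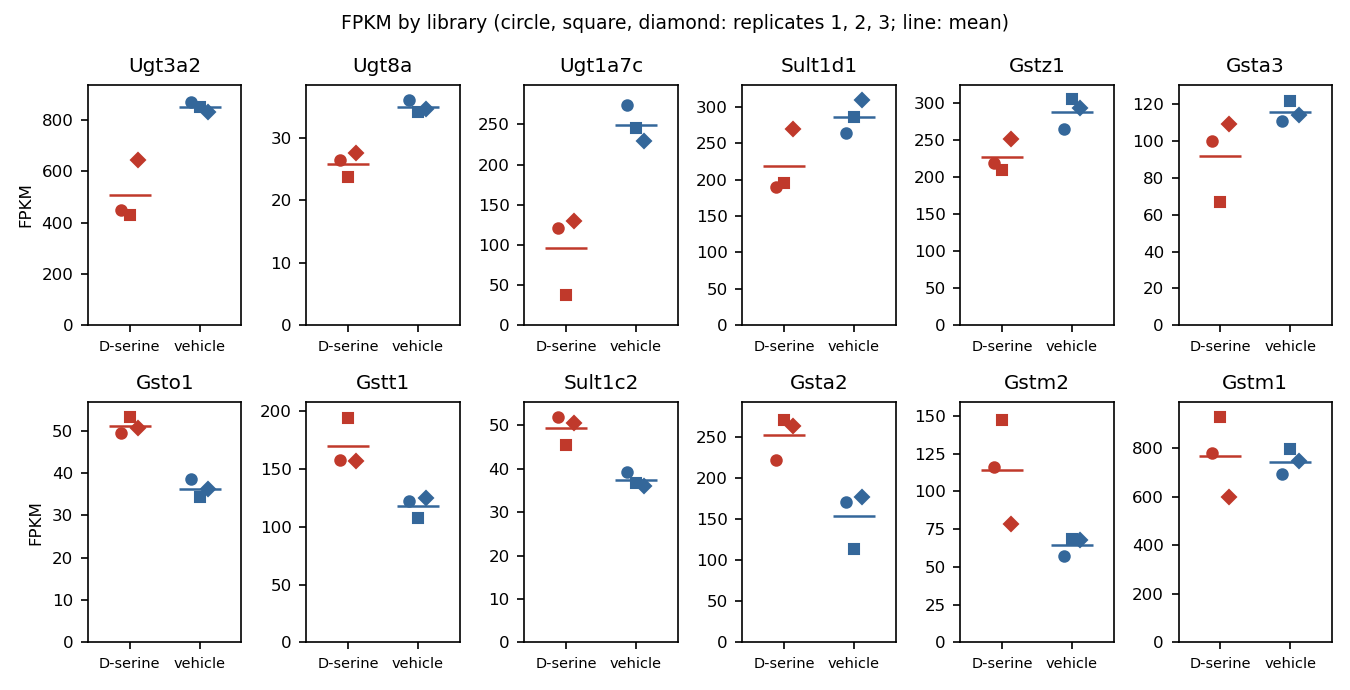
FPKM per library for 12 members, D-serine at the left of each panel and vehicle at the right (circle, square and diamond are replicates 1, 2 and 3, the line is the mean, n = 3 each). The upper row holds members whose mean is lower with D-serine, such as Ugt3a2 at 509 FPKM against 852 FPKM, and the lower row members whose mean is higher, such as Gsta2 at 252 FPKM against 154 FPKM.

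Of the Gst genes, 7 of 19 were higher and apart and 3 lower and apart, beside 16.5% and 19.4% of all tested genes. Of the 7, 5 belonged to the omega, theta and alpha classes. Gsto1, an omega class enzyme that reduces dehydroascorbate and arsenic species, had 49.4, 53.1 and 50.5 FPKM with D-serine and 38.4, 34.3 and 36.1 FPKM with vehicle. The spread was small in both groups, and the log2 difference was 0.48 ± 0.089 (adjusted p = 0.060 in limma). Gsto1 lies on chromosome 19 (47854970 to 47864790), next to Gsto2, which averaged 1.39 ± 0.35 FPKM with D-serine and 0.943 ± 0.11 FPKM with vehicle (adjusted p = 0.28). No 50-base word of either occurs in another gene.

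The theta class acts on small halogenated compounds. Gstt1 had 158, 194 and 157 FPKM with D-serine and 122, 108 and 125 FPKM with vehicle, with no overlap (log2 difference 0.51 ± 0.12, adjusted p = 0.074 in limma). Gstt3 was at 49.2, 49.0 and 45.3 FPKM with D-serine and at 36.3, 38.8 and 42.1 FPKM with vehicle, again apart (adjusted p = 0.12). Their neighbour Gstt2 averaged 180 ± 20.4 FPKM with D-serine and 168 ± 18.6 FPKM with vehicle, a difference within the spread of the replicates.

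In the alpha class, Gsta2 (chromosome 9, 78331018 to 78355788) had 221, 271 and 263 FPKM with D-serine and 171, 114 and 177 FPKM with vehicle. Each D-serine library was above each vehicle library, with a log2 difference of 0.73 ± 0.18 (adjusted p = 0.080 in limma). Its near copy Gsta1, below the level tested, was at 0.908, 0.388 and 0.551 FPKM with D-serine, against 0.170 FPKM in vehicle replicate 2 and values listed at 0 in the other vehicle libraries. Of the 50-base words of Gsta2, 47.4% occur in other genes, and 32.9% occur in Gsta1. Of those of Gsta1, 82.9% occur in Gm3776, which the choice by symbol leaves out. Reads could thus be split among these genes. Gsta4, which clears the lipid peroxidation product 4-hydroxynonenal, averaged 52.5 ± 7.73 FPKM with D-serine and 39.7 ± 3.90 FPKM with vehicle, without overlap (adjusted p = 0.12). Gsta3 went against these, with 99.9, 67.1 and 109 FPKM with D-serine and 111, 122 and 114 FPKM with vehicle (log2 difference -0.35 ± 0.18, adjusted p = 0.24). That difference was -0.14 without D-serine replicate 2.

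The mu class held the most abundant member of the family. Gstm1 was at 779, 928 and 599 FPKM with D-serine and at 692, 796 and 747 FPKM with vehicle. Its groups overlapped fully, and the log2 difference of 0.024 turned negative with quantile normalization, with weighted libraries, with a trend on length and GC removed, and without vehicle replicate 1 or D-serine replicate 2. Gstm2 (chromosome 3, 107981702 to 107986453) had 116, 147 and 78.5 FPKM with D-serine and 57.6, 68.6 and 68.0 FPKM with vehicle. All D-serine libraries were higher, replicate 2 the most, and the log2 difference was 0.76 ± 0.22 (adjusted p = 0.095 in limma). It was 1.01 without D-serine replicate 3, where it passed (adjusted p = 0.037). Gstm5 had 299, 250 and 334 FPKM with D-serine and 231, 238 and 229 FPKM with vehicle, apart by a narrow margin in D-serine replicate 2 (adjusted p = 0.14). Gstm4, Gstm6 and Gstm7 overlapped between groups, with means of 14.4, 2.11 and 4.37 FPKM with D-serine and 15.8, 1.54 and 5.25 FPKM with vehicle.

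Gstz1, the maleylacetoacetate isomerase of tyrosine breakdown, had 218, 210 and 251 FPKM with D-serine and 265, 304 and 292 FPKM with vehicle. It was lower in each D-serine library, with a log2 difference of -0.34 ± 0.11 (adjusted p = 0.11 in limma). Gstcd, which carries a Gst-like domain in a larger protein, averaged 1.57 ± 0.32 FPKM with D-serine and 2.39 ± 0.25 FPKM with vehicle, also apart (adjusted p = 0.14). The kappa enzyme Gstk1 of mitochondria and peroxisomes averaged 112 ± 3.92 and 110 ± 9.85 FPKM. The pi class genes Gstp1 and Gstp2, which share 51.0% and 50.4% of their 50-base words with other genes, averaged 140 and 4.97 FPKM with D-serine and 131 and 4.92 FPKM with vehicle. All of these last 3 overlapped between groups.

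The differences varied with transcript length. Over all tested genes with a matched transcript, the median log2 difference was 0.26 for those under 1000 bases (680 genes), 0.098 for 1000 to 2000 bases and -0.094 for over 4000 bases. The longest annotated transcript had a median of 1289 bases among the tested Gst genes and 2303 bases among the tested Ugt genes. With a trend on length and GC content removed from each library, 10 of 19 Gst genes were higher, and Gstk1, Gstm1 and Gstp1 changed sign. The median was then 0.091 for Gst and -0.31 for Ugt. Among the named members Gsto1, Gstt1, Gsta2 and Gstm2 stayed higher and Ugt3a2, Ugt8a and Ugt1a7c stayed lower under that setting, with adjusted p from 0.086 to 0.15 in limma. The log2 difference was then 0.31 for Gstt1, 0.24 for Gsta4, 0.19 for Gstm5 and 0.17 for Gsto2, beside 0.51, 0.39, 0.33 and 0.29 as deposited.

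The 29 members below the level tested were 12 Ugt, 14 Sult and 3 Gst genes, with no single value above 1.75 FPKM. Of these, 9 were listed at 0 in all libraries, namely Sult1c1, Sult2a1, Sult2a2, Sult2a4 to Sult2a8 and Sult3a1. The Sult2a genes encode hydroxysteroid sulfotransferases known mainly from liver, and of them Sult2a3 reached 0.730 FPKM with D-serine and 0.903 FPKM with vehicle at most. Ugt1a1, which conjugates bilirubin in liver, was at 0.130 to 0.285 FPKM with D-serine and at 0.239 to 0.505 FPKM with vehicle. The other members above 0 in some library were Ugt1a2, Ugt1a5, Ugt1a9, Ugt1a10, Ugt2a1, Ugt2a2, Ugt2a3, Ugt2b1, Ugt2b34, Ugt2b35, Ugt2b36, Sult1e1, Sult2b1, Sult4a1, Sult6b1, Gsta1, Gstm3 and Gstt4. The members just above the limit were Gsto2 at a mean of 1.17 and Sult5a1 at 1.38 FPKM, and the nearest below it was Ugt2b34 at 0.781 FPKM.

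The steps around the families were described with lists of genes by role, and 0 of their genes passed in limma at the adjusted threshold. All 8 tested genes of UDP-glucuronate supply and glucuronide hydrolysis were lower with D-serine (median log2 difference -0.22), as were 5997 of all 11737 tested genes, and 5 of the 8 were apart, beside 19.4% of all tested genes apart and lower. Ugdh, which oxidises UDP-glucose to UDP-glucuronate, had 37.7, 40.5 and 39.6 FPKM with D-serine and 56.6, 50.7 and 51.3 FPKM with vehicle (adjusted p = 0.070). Slc35d1, which carries UDP-glucuronate into the endoplasmic reticulum, averaged 6.42 ± 2.17 FPKM with D-serine and 11.7 ± 0.47 FPKM with vehicle. Gusb, the glucuronidase that removes the sugar again, averaged 10.5 ± 2.71 and 22.9 ± 4.66 FPKM (adjusted p = 0.064). Gusb is also on the list of androgen-responsive kidney genes, of which 8 of 9 tested were lower and 1 higher (median log2 difference -1.06). Of these 9 genes, 6 were apart and lower, beside the 19.4% of all tested genes. Cyp7b1 is on this list and on the S3 list, and the part of either in the members' values was not tested.

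Of 13 tested genes of PAPS supply and sulfatases, 2 were higher and 11 lower (median -0.11). Bpnt1, which clears the by-product of sulfation, averaged 96.6 ± 23.7 FPKM with D-serine and 143 ± 6.25 FPKM with vehicle, and the PAPS synthase gene Papss2 averaged 86.3 ± 14.6 and 90.0 ± 8.24 FPKM, within the spread. Of 20 tested genes of glutathione synthesis and turnover, 4 were higher and 16 lower (median -0.20). The libraries were apart for 10 of these 20, all lower, beside the 19.4% of all tested genes that were apart and lower. Of the genes that make glutathione, Gclc at 65.4 ± 8.42 FPKM with D-serine and 65.0 ± 7.37 FPKM with vehicle and Gss at 283 ± 33.5 and 304 ± 21.4 FPKM overlapped between groups. Gclm, the modifier subunit of the ligase that Gclc belongs to, was lower and apart by a narrow margin, at 123, 106 and 123 FPKM with D-serine and 130, 139 and 126 FPKM with vehicle (adjusted p = 0.32). Among the genes named here of the route from glutathione conjugates to mercapturic acids, all but Dpep1 had lower means with D-serine. Nat8, which acetylates the cysteine conjugate, had 441, 412 and 491 FPKM with D-serine and 604, 736 and 656 FPKM with vehicle (adjusted p = 0.066), the peptidase gene Anpep averaged 83.7 ± 6.74 and 120 ± 12.8 FPKM, and Ggt1, the gamma-glutamyl transferase of the brush border, averaged 811 ± 63.2 and 973 ± 55.0 FPKM (adjusted p = 0.14), all 3 apart. The dipeptidase gene Dpep1 averaged 40.6 ± 10.8 FPKM with D-serine and 31.2 ± 10.3 FPKM with vehicle, and the transferase gene Ggt6 averaged 7.08 ± 0.53 and 8.27 ± 0.72 FPKM, both with overlap. Acy3, which removes the acetyl group from such conjugates, averaged 2800 ± 118 and 3851 ± 513 FPKM and is also a marker on the S3 list.

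The membrane-bound glutathione transferases of the MAPEG family are unrelated to the Gst genes in sequence. All 4 tested members were higher with D-serine (median log2 difference 0.64), and 3 of them were apart, beside 16.5% of all tested genes apart and higher. Ltc4s, which makes leukotriene C4, had 34.0, 49.7 and 32.9 FPKM with D-serine and 12.5, 15.8 and 20.4 FPKM with vehicle (log2 difference 1.21 ± 0.21, adjusted p = 0.058 in limma). Mgst3 had 326, 438 and 353 FPKM with D-serine and 226, 234 and 288 FPKM with vehicle (adjusted p = 0.082), and the prostaglandin E synthase gene Ptges had 15.6, 14.8 and 11.7 FPKM with D-serine and 6.71, 9.74 and 8.43 FPKM with vehicle. Ptges is abundant in the collecting duct, whose marker sums were higher with D-serine, and the part of those cells in this value was not tested.

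**Figure D5:**
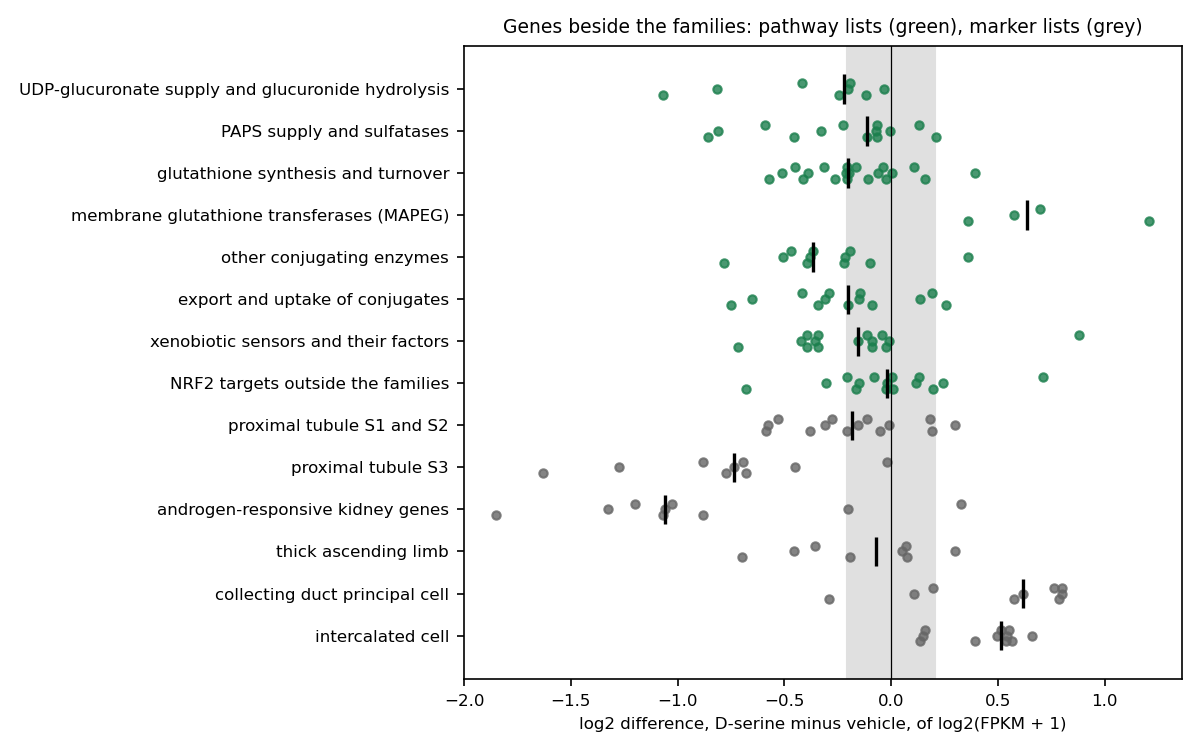
Log2 difference (D-serine minus vehicle) of each tested gene of 8 lists of conjugation steps and regulators (green) and of 6 marker lists (grey), with the list's median as a black bar and the interquartile range of all tested genes as a grey band. The membrane-bound glutathione transferases have a median of 0.64 and S3 markers one of -0.73.

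Other conjugating enzymes stood lower in 10 of 11 cases (median -0.37), among them Acsm2, an acyl-CoA synthetase of glycine conjugation, at 607 ± 104 FPKM with D-serine and 1035 ± 69.8 FPKM with vehicle (adjusted p = 0.059). Transporters of conjugates were lower in 10 of 13 cases (median -0.20), such as the apical export pump gene Abcc2 at 42.1 ± 5.53 and 56.3 ± 2.50 FPKM. Of 15 tested sensors and transcription factors, 14 were lower and 1 higher. The 1 higher was Nr1i2, encoding the xenobiotic receptor PXR, at 2.92, 2.48 and 4.26 FPKM with D-serine and 1.55, 1.11 and 1.12 FPKM with vehicle (adjusted p = 0.067). Hnf4a, a regulator of proximal tubule and liver genes, averaged 137 FPKM with D-serine and 180 FPKM with vehicle without overlap, and Ppara, the fatty acid receptor, averaged 11.5 ± 1.17 and 19.8 ± 4.25 FPKM. Nfe2l2, which encodes NRF2, averaged 37.2 ± 6.97 and 39.3 ± 4.17 FPKM, and its repressor gene Keap1 averaged 15.4 ± 0.37 and 16.5 ± 0.46 FPKM.

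NRF2 targets outside the 3 families did not stand to 1 side, with 7 of 15 tested genes higher and 8 lower and a median log2 difference of -0.019. Ephx1, the microsomal epoxide hydrolase, averaged 25.3 ± 4.05 FPKM with D-serine and 14.9 ± 0.23 FPKM with vehicle, wholly apart (log2 difference 0.71 ± 0.13, adjusted p = 0.058 in limma). Nqo1, a quinone reductase, averaged 68.7 ± 1.85 FPKM with D-serine and 60.0 ± 5.15 FPKM with vehicle, and Hmox1, heme oxygenase 1, averaged 19.8 ± 2.90 and 24.8 ± 4.33 FPKM (adjusted p = 0.23 and 0.25).

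The promoters were searched for sites of these regulators in the 250 bases before each RefSeq start (GRCm38.p6, the same assembly as mm10), on both strands, for the 54 of 62 members with an entry. The core of the antioxidant response element that NRF2 binds, TGACNNNGC, was found in 3 of the 29 tested members with an entry, and in 11.5% of all 27025 genes. The windows of 30 bases around it are shown in the gene's direction, with the match in capitals, at chr1:21240454-21240483 (plus strand), chr3:107895802-107895831 (plus strand) and chr3:107931724-107931753 (minus strand), because the 3 genes differ in direction.
Gsta3: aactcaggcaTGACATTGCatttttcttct
Gstm5: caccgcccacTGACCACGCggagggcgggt
Gstm7: tctgaagaccTGACAAAGCgaagccaatcc
Of these, Gstm5 was higher with D-serine and apart, Gsta3 lower and apart, and Gstm7 overlapped. The core of the xenobiotic response element, GCGTG, was found in 8 of the 29, Gsta2, Gstm1, Gstm5 and Ugt8a among them, and in 30.9% of all genes, and in Gstm5 it overlaps the antioxidant match.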

How the data were processed

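RNA of 6 kidney samples was made into stranded mRNA libraries, per the labels' protocols. The authors deposited 1 FPKM table per sample; the submitters' processing notes name TopHat2 2.0.13, Bowtie2 2.2.3, SAMtools 0.1.19 and Cufflinks 2.2.1 with build mm10. The sources used here give no annotation, strand setting or read length, and Cufflinks can list a gene at 0 when an estimate fails. FPKM are relative to the library total, and Kap alone held 11.6 to 15.1% of the FPKM sum with D-serine and 14.2 to 15.9% with vehicle.

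Here limma 3.58.1 (R 4.3.3, with a mean-variance trend) compared 3 D-serine with 3 vehicle libraries on log2(FPKM + 1), two-sided, over the 11737 genes averaging 1 FPKM or more, with Benjamini-Hochberg adjustment over all of them and a threshold of 0.05. The scale understates differences of low genes. An exact permutation test of 3 against 3 cannot go below p = 0.1 and was not used. The script was tested on simulated data. Named members are the 10 higher and 10 lower tested ones with the smallest p and the 4 most abundant of each family; from each list of other genes the 3 with the smallest p were eligible, and further ones are named for their role after their values were seen. Members and lists were chosen with earlier results of these data known. Positions and 50-base words came from GENCODE M21, which held all 62 members, and lengths matched 96.4% of tested genes. The alternatives are given under the closing heading.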

Additional observations from a re-analysis of the deposited data

How the results depend on the processing

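The count of called members was 0, and it was 2 with weighted libraries and 2 with small RNA genes left out (Gsto1 and Ugt3a2 in both), 0 under the 8 other settings, and from 0 to 4 when 1 library was left out. The 4, without D-serine replicate 3, were Gstm2, Sult1d1, Ugt3a1 and Ugt3a2. Over all genes 9 were called, against 171 with a pseudocount of 0.1 FPKM, 132 with a minimum of 5 FPKM, 269 with weighted libraries, 332 without small RNA genes, 2 with the replicate block, and 2 to 608 without 1 library, the highest without D-serine replicate 3. The Ugt median of -0.42 was -0.067 with no filter on low values and from -0.47 to -0.22 without 1 library. The Sult median of 0.23 was -0.051 with no filter, 0.091 with weighted libraries, 0.13 with quantile normalization and from -0.011 to 0.38 without 1 library. The Gst median of 0.097 was 0.19 with a minimum of 5 FPKM, 0.15 with quantile normalization, 0.18 with weighted libraries and from 0.062 to 0.19 without 1 library. The cause of these shifts was not tested. Of 24 named members, Gstm1 alone reversed, to -0.097 with quantile normalization, -0.026 with weighted libraries, -0.13 with the length and GC trend removed (a setting added after seeing the data), and -0.029 and -0.12 without vehicle replicate 1 and D-serine replicate 2. Most named members were picked by the smallest p in the main fit, which favours a stable sign. Among the other tested members, Ugt2b5, Sult5a1, Gstk1, Gstp1 and Gstp2 also changed sign in at least 1 fit. Libraries with the same replicate number did not deviate together (correlations of -0.070, 0.0031 and 0.067). Pairs with different numbers ran from -0.082 to 0.083. The labels do not say whether the numbers pair samples, and with 3 libraries a group these correlations cannot settle it. With the replicate block 0 members were called and the lowest adjusted p among them was 0.14 in limma. The median log2 difference of all tested genes was -0.0146 with median-of-ratios scaling and -0.0113 with quantile normalization, beside -0.0078 in the main fit. Low members rest on few fragments at this depth, and with 3 libraries a group small differences cannot be told from the spread.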

Other observations

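Members of 1 gene cluster were not all apart between the groups. In the mu cluster on chromosome 3 (107895821 to 108044894, mm10), Gstm5 and Gstm2 were higher with D-serine and apart, while Gstm7, Gstm6, Gstm1 and Gstm4 overlapped between groups and Gstm3 stayed under 0.23 FPKM in every library. On chromosome 5 the Ugt2a genes lie beside Sult1b1 (87513339 to 87538195), Sult1d1 (87554645 to 87569027) and Sult1e1; Sult1b1 and Sult1d1 both had lower means with D-serine, 1.38 and 218 FPKM against 2.09 and 286 FPKM with vehicle (SD 0.47 and 44.0 with D-serine and 0.34 and 22.6 with vehicle, n = 3 each). Whether such neighbours differ from each other in their response was not tested.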
